A study of Homo sapiens with 27 samples.

Results

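The 42 genes described here lie on the short arm of human chromosome 3 (3p), and several are known tumour suppressors. They were selected on measured values: their RNA had been seen to be lower in 22Rv1 prostate cancer cells carrying guide RNAs against RIPK2 than in cells carrying a control guide. The 22Rv1 differences below are therefore a description of what chose the genes and are not a test. All 42 were found among the 27546 gene symbols of the count tables, all 42 are annotated on 3p as protein coding, and all 42 passed the filter on low counts in each line, where 15198 (22Rv1), 14908 (DU145) and 14718 (PC3) genes were tested. The name of the set, 3p genes lower in 22Rv1 knockouts, held only in part. Genes of the long arm (3q) were lower in 22Rv1 by nearly the same amount, many of the 42 genes were also lower in the DU145 knockouts, and most were higher in the PC3 knockouts.

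As background, 3p is among the chromosome arms most often lost in solid tumours, above all in clear cell kidney cancer and lung cancer. It carries VHL, the substrate receptor of the ubiquitin ligase that marks hypoxia-inducible factors (HIF) for destruction, and the chromatin regulators SETD2, which trimethylates lysine 36 of histone H3, BAP1, a nuclear deubiquitinase, and PBRM1, a bromodomain subunit of the PBAF remodelling complex. It also carries RASSF1, a scaffold of RAS and Hippo signalling often silenced by promoter methylation, FHIT, a hydrolase gene at a common fragile site, and TGFBR2, the ligand-binding receptor of TGF-beta. Genes of an arm share its copy number, so their RNA can move together when the number of copies changes. DNA was not measured here, and the part of copy number in the values below was not tested.

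RNA was sequenced in 27 libraries from 3 established human prostate cancer lines, 22Rv1, DU145 and PC3, with 3 libraries in each of 9 groups. In each line the control cells, labelled WT, carried a control guide (gRNA 1 of the controls), and the RIPK2 knockout cells carried 1 of 2 RIPK2 guides: gRNA 1 or gRNA 10 in 22Rv1, and gRNA 2 or gRNA 10 in DU145 and in PC3. RIPK2 encodes a kinase that relays signals from the NOD receptors of bacterial peptidoglycan. Whether the cells of a guide were 1 clone or a pool is not given in the sources used here, nor is any treatment or time point. Nothing in them says that the 3 libraries of a group came from separate cultures, so the p-values measure only the spread between these libraries, which may be technical. Both guides of a line were compared with the same 3 control libraries.

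The libraries held 17958558 to 20650819 counts each, and levels are given in CPM, which relates a gene's count to the size of its library, after TMM scaling, a correction for library make-up. RIPK2, the targeted gene, was lower by 0.94 ± 0.12 (log2, estimate ± SE) with gRNA 1 and by 1.63 ± 0.12 with gRNA 10 in 22Rv1, by 1.84 ± 0.12 with gRNA 2 in DU145, and by 1.55 ± 0.056 and 1.15 ± 0.053 with gRNA 2 and gRNA 10 in PC3; with gRNA 10 in DU145 it changed by -0.29 ± 0.11 and was not called (edgeR adjusted p = 0.0614). The 4 epithelial markers, none at or under 3 counts, summed to 821 to 876 CPM in the 22Rv1 controls and 993 to 1076 CPM in the knockouts, to 795 to 840 CPM in the DU145 controls and 1429 to 2815 CPM in the knockouts, and to 733 to 758 CPM in the PC3 controls and 920.0 to 1758 CPM in the knockouts. A list of 7 luminal prostate markers summed to 1297 to 1356 CPM in the 22Rv1 controls, 525 to 616 CPM with gRNA 1 and 988 to 1016 CPM with gRNA 10, to 1505 to 1556 CPM in the PC3 controls and 1035 to 1195 CPM in the knockouts, and to at most 55.5 CPM in DU145. Immune markers summed to at most 3.27 CPM. The 6 fibroblast markers summed to 10.5 to 11.9 CPM in the 22Rv1 controls and 15 to 32.4 CPM in the knockouts, with DCN and COL1A2 at or under 3 counts. The 4 endothelial markers summed to 2.98 to 3.63 CPM in the PC3 controls and 21.3 to 53.0 CPM in the knockouts, with VWF and CDH5 at or under 3 counts. The part of these markers in the results was not tested. In 1 library, gRNA 1 replicate 3 of 22Rv1, 16.7% of counts came from mitochondrial genes (95% Wilson interval 16.6 to 16.7%, counting error only), against 0.515 to 2.10% in the other 22Rv1 libraries.

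The promoters of 4 of the genes are printed because the results turn on how these genes differ: SETD2, which moved with the rest of the set, CDCP1, with the largest fall in 22Rv1, RASSF1, which was not lower there, and PRKCD, which moved in opposite directions with the guides. They were picked after their values had been seen. Each runs from 250 bases before to 50 bases after a RefSeq start (GRCh38.p14), 5′ to 3′ on the strand of the gene, with CG dinucleotides, the sites of DNA methylation, in capitals.
SETD2, chr3:47164064-47164363, minus strand: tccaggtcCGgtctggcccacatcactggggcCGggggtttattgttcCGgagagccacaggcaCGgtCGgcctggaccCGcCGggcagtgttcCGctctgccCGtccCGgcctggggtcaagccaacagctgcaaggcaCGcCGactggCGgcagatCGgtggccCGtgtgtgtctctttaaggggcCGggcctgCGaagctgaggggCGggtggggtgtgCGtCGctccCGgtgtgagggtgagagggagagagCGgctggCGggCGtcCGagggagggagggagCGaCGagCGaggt
CDCP1, chr3:45146329-45146628, minus strand: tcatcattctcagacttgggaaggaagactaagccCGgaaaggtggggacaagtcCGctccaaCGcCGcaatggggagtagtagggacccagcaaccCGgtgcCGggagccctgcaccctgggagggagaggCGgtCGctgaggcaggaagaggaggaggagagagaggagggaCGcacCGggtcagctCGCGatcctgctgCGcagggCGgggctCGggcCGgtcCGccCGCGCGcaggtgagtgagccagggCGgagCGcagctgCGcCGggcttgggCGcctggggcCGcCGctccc
RASSF1, chr3:50337401-50337700, minus strand: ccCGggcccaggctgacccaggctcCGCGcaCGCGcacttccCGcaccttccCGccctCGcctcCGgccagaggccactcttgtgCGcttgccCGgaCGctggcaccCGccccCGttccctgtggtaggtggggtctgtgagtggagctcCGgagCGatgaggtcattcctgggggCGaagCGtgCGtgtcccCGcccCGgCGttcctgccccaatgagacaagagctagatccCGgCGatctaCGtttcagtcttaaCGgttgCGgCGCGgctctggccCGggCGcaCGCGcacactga
PRKCD, chr3:53160959-53161258, plus strand: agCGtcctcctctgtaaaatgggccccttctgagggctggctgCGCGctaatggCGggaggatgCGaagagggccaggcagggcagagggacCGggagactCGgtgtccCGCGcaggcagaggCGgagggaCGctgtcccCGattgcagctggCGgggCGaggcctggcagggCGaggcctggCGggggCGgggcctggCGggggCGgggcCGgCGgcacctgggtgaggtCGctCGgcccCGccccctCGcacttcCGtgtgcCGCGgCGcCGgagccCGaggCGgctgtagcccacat
The 4 sequences hold 28, 27, 33 and 32 CG dinucleotides in that order. The RASSF1 entry lies 3530 bases from the annotated 5′ end of the gene and the PRKCD entry 5200 bases from it, so both genes have other annotated starts.

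Of the 42 genes, 36 matched the RefSeq promoter table, and where a gene had several entries the one nearest its annotated 5′ end was taken. These promoters held a median of 31 CG in 300 bases (range 6 to 45) and 68.7% G or C. The promoters of the other tested 3p genes (310) had medians of 27 CG and 65.7%, and those of all tested genes (11484) 26 CG and 65.3%. The letters TATAAA, searched on both strands, were in 1 of the 36 promoters (2.78%, RHOA), in 5.98% of the promoters of all tested genes and in 12% of the 27305 promoters of the table. The set was thus made up mainly of genes with CG-rich promoters. In the controls its median level was 99.9 CPM in 22Rv1, 68.2 CPM in DU145 and 62.0 CPM in PC3, against 23.6, 25.8 and 24.2 CPM over all tested genes. By the GENCODE annotation (GRCh38) the genes lie between bases 10026414 (FANCD2) and 72861914 (SHQ1), and 29 of the 42 start between 40 and 60 Mb.

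In 22Rv1 the set was lower with both guides, by nearly the same median. With gRNA 1 the median log2 fold change of the 42 genes was -0.69, 40 genes were below 0, and 31 were called lower (edgeR adjusted p under 0.05 over all genes tested), against 22.9% of all tested genes. RASSF1 and SEMA3B were called higher, where 25.6% of all tested genes were. With gRNA 10 the median was -0.63, 40 genes were below 0, 34 were called lower and 1, PRKCD, was called higher, against 20.6% and 20% of all tested genes. The genes called lower with both guides numbered 28, and 39 were below 0 with both. NKTR, RBM5 and NISCH were called with neither guide. Because these comparisons chose the genes, nothing is read from the counts. For scale, a level at 2/3 of the control is -0.58 on the log2 scale. Lower RNA in every cell and loss of RNA from part of the cells cannot be told apart in bulk libraries.

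The 6 knockout libraries of 22Rv1 lay close together in the set's median. Against the control mean it was -0.66, -0.61 and -0.82 in the 3 gRNA 1 libraries, lowest in the library with many mitochondrial counts, and -0.62, -0.63 and -0.61 with gRNA 10. The controls were at 0.0068, 0.040 and -0.018. In each knockout library 35 to 40 of the 42 genes were below the control mean.

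**Figure D1:**
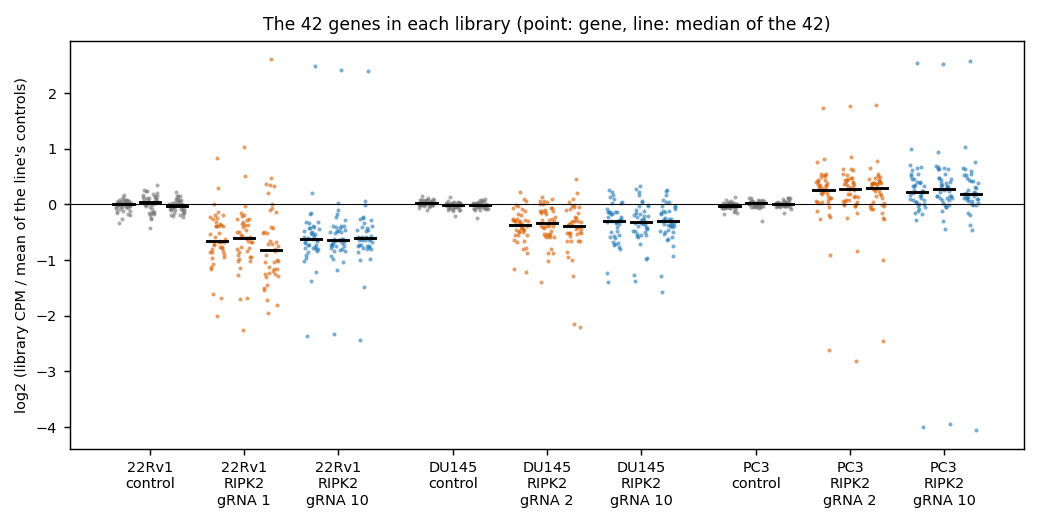
Each point is 1 of the 42 genes in 1 library, as the log2 ratio of its CPM to the mean of its line's 3 controls (vertical axis), and black lines are medians of the 42. The medians of the 22Rv1 knockout libraries lie between -0.82 and -0.61, those of DU145 between -0.39 and -0.29, and those of PC3 between 0.19 and 0.29.

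In the line whose values chose the genes, the differences were more even across genes with gRNA 10 than with gRNA 1. The quartiles of the 42 log2 ratios were -1.22 and -0.41 in gRNA 1 replicate 3, the library with many mitochondrial counts. They were -0.85 and -0.36 in gRNA 1 replicate 1 and -0.90 and -0.36 in replicate 2. In the gRNA 10 libraries they were -0.79 and -0.43, -0.75 and -0.43, and -0.74 and -0.43. With gRNA 10, 31 of the 42 genes (73.8%) lay within 0.3 log2 units of the set's median, and with gRNA 1 it was 17 of 42 (40.5%). The same shares among the other 3p genes, around their own median, were 49.3% and 40.4%. The SD over the 42 genes was 0.61 with gRNA 10 and 0.58 with gRNA 1, and 0.37 and 0.45 without PRKCD and SEMA3B. Over all tested genes it was 1.04 and 1.08, but their median control level was lower (23.6 CPM against 99.9 CPM for the set). The part of expression level in this spread was not tested. Such evenness was also seen in the other lines. In DU145, 78.6% (gRNA 2) and 69.0% (gRNA 10) of the 42 genes lay within 0.3 of the set's median. The shares in PC3 were 76.2% and 71.4%. Among the other 3p genes they were 56.5% and 55.7% in DU145 and 49.2% and 44.5% in PC3.

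Among the tumour suppressors of the set, VHL (chr3:10141008-10152220) was the furthest below the controls in 22Rv1 with each guide. It measured 151, 170.0 and 146 CPM in the controls, 85.8, 89.04 and 53.6 CPM with gRNA 1, and 77.2, 81.95 and 86.2 CPM with gRNA 10, log2 fold changes of -1.03 ± 0.17 and -0.93 ± 0.17. No knockout library reached the lowest control. SETD2 (chr3:47016429-47163967) measured 158, 166 and 138 CPM in controls, 94.9, 106 and 94.8 CPM with gRNA 1, and 102, 109 and 103 CPM with gRNA 10. Its changes, -0.65 ± 0.10 and -0.56 ± 0.10, were close to the median of the set. BAP1 (chr3:52401013-52410350) measured 199, 168 and 197 CPM in controls, 119, 123 and 140.2 CPM with gRNA 1 and 122, 121 and 113 CPM with gRNA 10, changes of -0.56 ± 0.10 and -0.66 ± 0.10. PBRM1 (chr3:52545352-52685917) measured 164, 189 and 147 CPM in controls, 98.6, 93.1 and 74.7 CPM with gRNA 1 and 113, 119 and 121 CPM with gRNA 10. It was lower with gRNA 1 (-0.91 ± 0.12) than with gRNA 10 (-0.50 ± 0.12), and the guides differed (edgeR adjusted p = 0.0277). For these 4 genes the knockout and control libraries of 22Rv1 did not overlap, but these libraries chose the genes. The share of all tested genes without such overlap is not given, here or for the genes below, so nothing is read from it.

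The other suppressors were less regular. FHIT (chr3:59749310-61251459) measured 15.8, 16.4 and 16.4 CPM in the 22Rv1 controls, 14.1, 13.6 and 14.9 CPM with gRNA 1 and 9.34, 10.6 and 10.5 CPM with gRNA 10, changes of -0.19 ± 0.10 and -0.68 ± 0.10. TGFBR2 (chr3:30606502-30694142), with the lowest mean CPM of the 42 genes in the 22Rv1 controls, measured 4.69, 5.91 and 5.14 CPM in controls, 4.47, 4.37 and 3.74 CPM with gRNA 1 and 3.51, 3.04 and 3.50 CPM with gRNA 10, changes of -0.32 ± 0.16 and -0.65 ± 0.16. In both genes the gRNA 10 libraries were the lowest, below the gRNA 1 libraries. RASSF1 (chr3:50329782-50340980) went the other way: it measured 25.1, 18.7 and 23.1 CPM in controls, 27.3, 31.6 and 30.95 CPM with gRNA 1 and 25.7, 20.8 and 23.3 CPM with gRNA 10. Its gRNA 1 libraries lay above the controls (0.43 ± 0.13), a call that was lost without gRNA 1 replicate 2 or control replicate 2, while its gRNA 10 libraries overlapped the controls (0.062 ± 0.13).

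**Figure D2:**
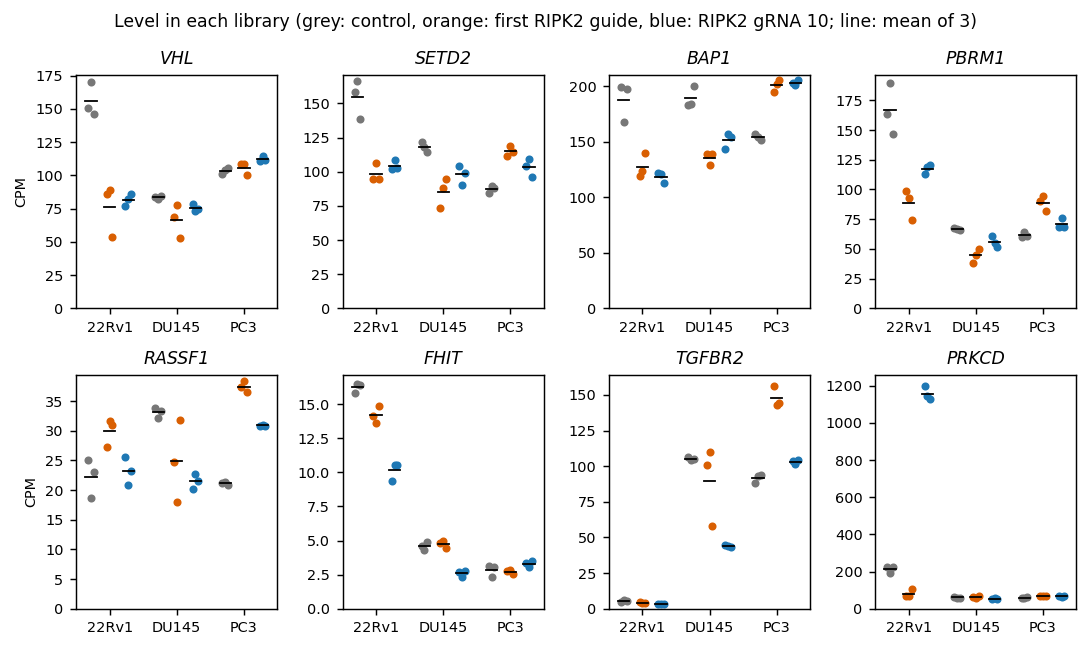
Level (CPM, vertical axes from 0) of 8 of the genes in each of the 27 libraries, grouped by line, with points for libraries and lines for the mean of 3. VHL, SETD2, BAP1 and PBRM1 are lower in each 22Rv1 knockout library than in any 22Rv1 control, in the line whose values chose the genes. PRKCD is at 1158 ± 38.5 CPM (mean) in the gRNA 10 libraries of 22Rv1 against 214 ± 17.03 CPM in their controls.

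The largest falls in 22Rv1, by the mean of both guides, were in CDCP1, SEMA3F and GOLGA4. CDCP1 (chr3:45082278-45146422), a transmembrane substrate of SRC family kinases, measured 118, 109 and 108 CPM in controls, 36.5, 34.2 and 34.2 CPM with gRNA 1, and 21.7, 22.2 and 20.6 CPM with gRNA 10. Its changes of -1.67 ± 0.088 and -2.38 ± 0.091 were well below the set's median, with no overlap between any of its groups. SEMA3F (chr3:50155045-50189075), a secreted guidance factor, measured 9.06, 6.18 and 9.64 CPM in controls, 2.07, 1.73 and 5.29 CPM with gRNA 1 and 3.20, 3.66 and 2.98 CPM with gRNA 10. Its change with gRNA 1 was -1.46 ± 0.35, or -2.13 without replicate 3, and with gRNA 10 it was -1.34 ± 0.35. GOLGA4 (chr3:37243177-37366751), a golgin that tethers vesicles at the trans-Golgi network, measured 175, 228 and 167 CPM in controls, 85.04, 79.1 and 67.1 CPM with gRNA 1 and 109.8, 115 and 113 CPM with gRNA 10 (-1.30 ± 0.13 and -0.75 ± 0.13).

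PRKCD and SEMA3B departed furthest from the common fall. PRKCD (chr3:53156009-53192717), the delta isoform of protein kinase C, measured 225, 195 and 223 CPM in the 22Rv1 controls, 66.96, 66.8 and 105 CPM with gRNA 1 and 1202, 1145 and 1128 CPM with gRNA 10. Its change was -1.43 ± 0.16 with gRNA 1 and 2.43 ± 0.17 with gRNA 10, and the guides differed by 3.86 ± 0.18 (edgeR adjusted p = 9.81e-08). All gRNA 1 libraries lay below the controls and all gRNA 10 libraries above them. SEMA3B (chr3:50267558-50277546), another secreted semaphorin, measured 6.61, 6.93 and 8.03 CPM in controls, 12.8, 14.8 and 43.9 CPM with gRNA 1 and 6.45, 7.32 and 7.15 CPM with gRNA 10. It was 1.72 ± 0.39 higher with gRNA 1, or 0.93 without replicate 3, and at -0.044 ± 0.40 with gRNA 10, where its libraries overlapped the controls.

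Apart from the genes not lower with both guides, the smallest mean changes in 22Rv1 were in NKTR, USP4 and NISCH, and in each the library with many mitochondrial counts was the highest of its group. NKTR (chr3:42600614-42648741), a cyclophilin with an arginine and serine rich tail, measured 94.5, 139.7 and 121 CPM in controls, 99.2, 84.2 and 153 CPM with gRNA 1 and 94.9, 90.4 and 99.01 CPM with gRNA 10. USP4 (chr3:49277831-49340712), a deubiquitinase, measured 47.1, 48.6 and 47.8 CPM in controls, 42.1, 41.3 and 55.1 CPM with gRNA 1 and 35.8, 36.3 and 36.02 CPM with gRNA 10. NISCH (chr3:52455118-52493071), an integrin-binding protein, measured 131, 124 and 150.2 CPM in controls, 105, 112 and 170.4 CPM with gRNA 1 and 102, 103 and 101 CPM with gRNA 10. Without gRNA 1 replicate 3, the gRNA 1 change of NKTR went from -0.079 to -0.38, that of USP4 from -0.051 to -0.21 and that of NISCH from -0.065 to -0.33. Without it, 35 of the 42 genes were called lower with gRNA 1, 39 with gRNA 10, and the set's medians were -0.65 and -0.62.

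The remaining genes are given by role, each with its gRNA 1 and gRNA 10 log2 fold change in 22Rv1. The chromatin and transcription genes were lower with both guides: SMARCC1, a core subunit of BAF complexes (-1.05 and -0.67), RYBP, a Polycomb component (-1.03 and -0.76), WDR82, a subunit of the SET1 histone methyltransferases (-0.68 and -0.80), ATXN7, a subunit of the SAGA coactivator (-0.97 and -0.77), and the transcription factors FOXP1 (-0.70 and -0.29) and MITF (-1.20 and -0.65). MITF measured 16.2, 23.4 and 15.8 CPM in controls, 9.63, 9.07 and 5.29 CPM with gRNA 1 and 11.8, 10.9 and 12.5 CPM with gRNA 10. Lower with both guides were also FANCD2, which is ubiquitylated in Fanconi anaemia repair (-0.51 and -0.48), CTNNB1, beta-catenin (-0.99 and -0.98), ACVR2B, an activin receptor (-0.89 and -0.73), and LIMD1, a LIM domain scaffold (-1.22 and -0.61).

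The signalling genes of the set were MYD88, the adaptor of Toll-like and interleukin-1 receptors (-1.05 and -0.72), OXSR1, a kinase acting on ion cotransporters (-1.03 and -0.68), RHOA, a GTPase of the actin cytoskeleton (-0.73 and -0.76), DUSP7, a MAP kinase phosphatase (-0.67 and -0.43), PXK, a phox domain protein (-0.74 and -1.07), and PTPRG, a receptor tyrosine phosphatase (-0.63 and -0.54), beside PRKCD and USP4. DAG1, which encodes dystroglycan, was at -0.61 and -0.26. NPRL2, a subunit of the GATOR1 brake on mTORC1 (-0.24 and -0.58), TUSC2 (-0.28 and -0.54), CYB561D2, a transmembrane cytochrome (-0.078 and -0.58), and LZTFL1, a regulator of ciliary trafficking (-0.20 and -0.80), all lay further below 0 with gRNA 10 than with gRNA 1. The genes of RNA handling beside NKTR were RBM5 (-0.058 and -0.41) and RBM6 (-0.29 and -0.19), both splicing regulators, DCP1A, a decapping cofactor (-0.61 and -0.77), and SHQ1, an assembly factor of small nucleolar RNA complexes (-0.76 and -0.43). ARF4, a GTPase of vesicle traffic, was at -0.73 and -0.73, and TKT, transketolase, at -0.70 and -0.59. RBM5 and RBM6 share 11138 bases on the same strand, and NPRL2 and CYB561D2 share 397 bases on opposite strands, so the counting may have split or merged their reads.

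The fall in 22Rv1 was not limited to the 42 genes or to 3p. The other 381 tested 3p genes had medians of -0.59 with gRNA 1 and -0.64 with gRNA 10, with 241 and 255 called lower. The 457 tested 3q genes had medians of -0.58 and -0.62, with 283 and 275 called lower. Among 41 chromosome arms with at least 20 tested genes, 3p and 3q were the lowest in both comparisons, followed by 4q at -0.19 with gRNA 1 and by 10p at -0.11 with gRNA 10. Each 10 Mb window of chromosome 3 had a median below 0, from -0.94 to -0.33 with gRNA 1 and from -0.81 to -0.37 with gRNA 10; the windows from 70 to 100 Mb, which hold the -0.94 and the -0.37, had under 20 genes each, and without them the ranges were -0.84 to -0.33 and -0.81 to -0.43. Genes off chromosome 3 had medians of 0.053 and 0.020. The highest arms were 7q at 0.56 with gRNA 1 and 7p at 0.51 with gRNA 10.

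**Figure D3:**
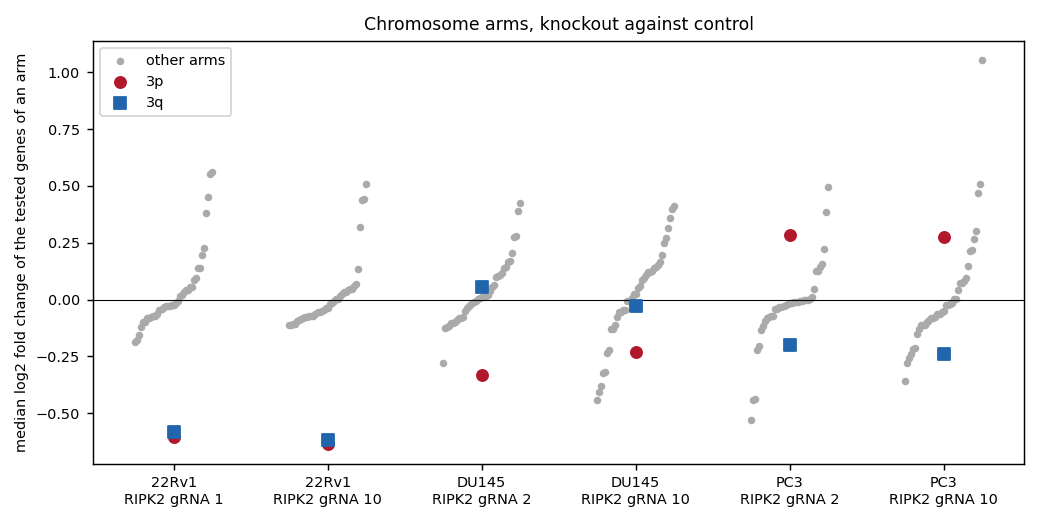
Each point is the median log2 fold change (vertical axis) of the tested genes of 1 chromosome arm for each RIPK2 guide against control, with red circles for 3p and blue squares for 3q. In 22Rv1 both arms of chromosome 3 lie between -0.64 and -0.58, below all other arms; in DU145 3p is at -0.33 and -0.23 with 3q at 0.056 and -0.026, and in PC3 3p is at 0.28 with both guides and 3q at -0.20 and -0.24.

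**Figure D4:**
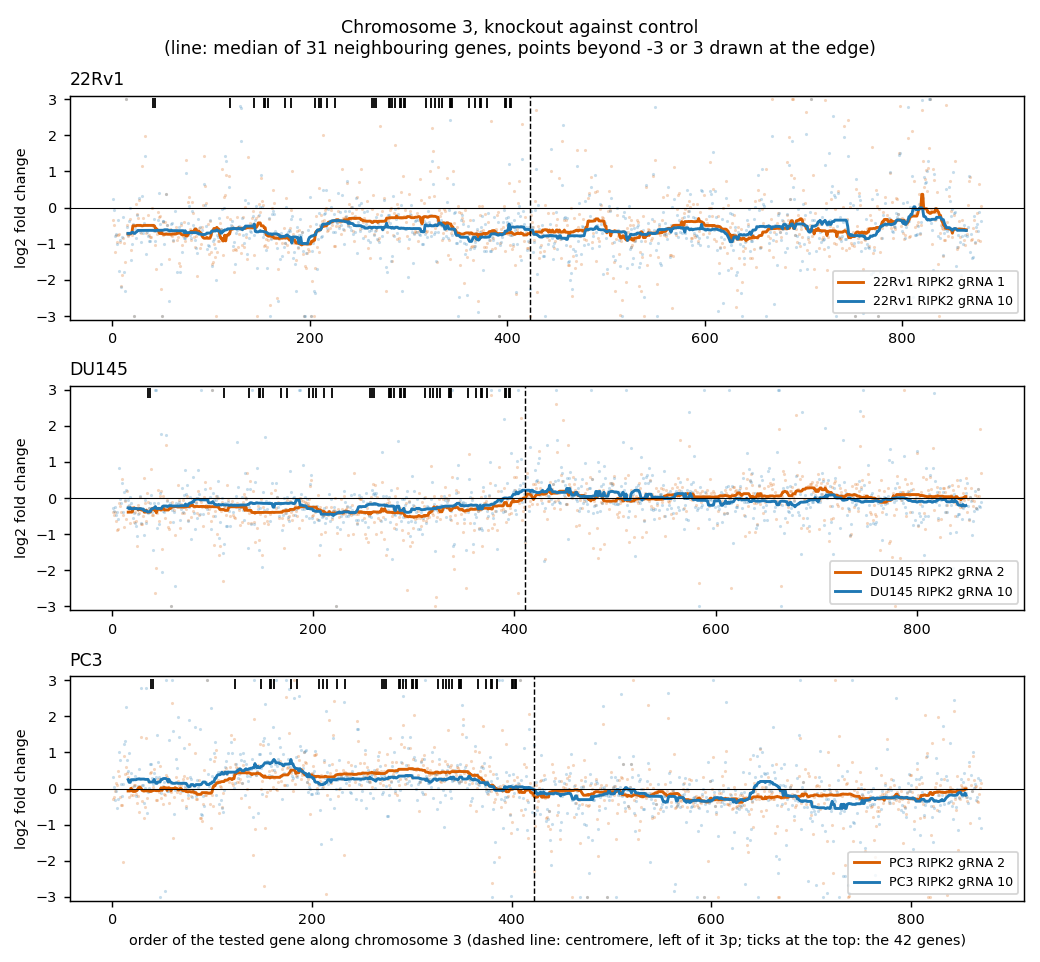
Log2 fold change (vertical axes) of each tested gene in its order along chromosome 3 (horizontal axes), with the running median of 31 genes for each guide; ticks at the top mark the 42 genes and the dashed line the centromere. The 22Rv1 lines run below 0 over nearly the whole chromosome, the DU145 lines are below 0 on most of 3p and near 0 on 3q, and the PC3 lines are above 0 over the middle of 3p and mostly below 0 on 3q.

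The RIPK2 guides of 22Rv1 differed from each other at 16 of the 42 genes (8 lower and 8 higher with gRNA 10), a share of 38.1% beside 35.6% of all tested genes, which is near the background. With gRNA 10, CDCP1 was at -0.70 ± 0.089 against gRNA 1 (edgeR adjusted p = 1.63e-04), LZTFL1 at -0.60 ± 0.16 (0.0117) and FHIT at -0.48 ± 0.11 (0.00481). LIMD1 was higher with gRNA 10 than with gRNA 1 by 0.60 ± 0.10 (edgeR adjusted p = 0.00106) and GOLGA4 by 0.55 ± 0.13 (0.00766). By position, the 7 genes before 40 Mb had a median change against control of -1.03 with gRNA 1 and -0.72 with gRNA 10, and the 18 genes between 50 and 60 Mb had -0.58 with each. All tested genes of the windows that hold them differed from this. Their medians with gRNA 1 and gRNA 10 were -0.68 and -0.63 from 10 to 20 Mb and -0.58 and -0.64 from 30 to 40 Mb. From 50 to 60 Mb they were -0.42 and -0.66. The number of genes differing between the guides was 8 without gRNA 10 replicate 1, 10 without replicate 2 and 10 without replicate 3.

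In DU145 the set was lower as well, by less. The genes were chosen with earlier results of these data known, so the DU145 and PC3 values are not an independent test. With gRNA 2 the median was -0.36, 39 genes were below 0 and 23 of 42 (54.8%) were called lower, against 17.0% of all tested genes and 159 of the other 368 3p genes (43.2%). With gRNA 10 the median was -0.31, 35 genes were below 0 and 20 of 42 (47.6%) were called lower, against 19.8% of all tested genes and 127 of the other 3p genes (34.5%). None of the 42 was called higher with either guide by edgeR, where 17.1% and 20.2% of all tested genes were, and none by DESeq2. At an unadjusted p under 0.05, edgeR gave 0 with either guide and DESeq2 gave 1 with gRNA 10. By edgeR adjusted p with gRNA 10, 2 were called higher without gRNA 2 replicate 3, and 3 when only the groups compared were fitted. The 13 genes called lower with both guides were MYD88, OXSR1, SMARCC1, RBM5, WDR82, BAP1, NISCH, TKT, DCP1A, ARF4, PTPRG, ATXN7 and MITF, and 12 were called with neither. Of all tested genes 8.02% were called lower with both guides. The other 3p genes had medians of -0.33 and -0.21, and the 3q genes 0.056 and -0.026. The 3p arm was the lowest of 41 with gRNA 2 and the seventh lowest with gRNA 10.

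MYD88 and PTPRG fell most in DU145 by the mean of both guides. MYD88 (chr3:38138478-38143022) measured 53.7, 54.6 and 54.3 CPM in controls, 24.2, 20.7 and 28.2 CPM with gRNA 2 and 20.6, 20.9 and 18.3 CPM with gRNA 10. Its changes were -1.16 ± 0.11 (edgeR adjusted p = 6.70e-05) and -1.44 ± 0.12 (1.01e-05), and no knockout library overlapped the controls. PTPRG (chr3:61561569-62297613) measured 223, 211 and 219 CPM in controls, 93.97, 119 and 47.05 CPM with gRNA 2 and 125, 112 and 115 CPM with gRNA 10. Its changes were -1.33 ± 0.25 (edgeR adjusted p = 0.00274) and -0.89 ± 0.25 (0.0149), all knockout libraries lying below the controls. The gRNA 10 call was lost without gRNA 10 replicate 2 (-0.86, edgeR adjusted p = 0.0528) or replicate 3 (-0.88, 0.0516).

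Of the suppressors, BAP1 fell with both DU145 guides, from 183, 184 and 199.6 CPM in controls to 139, 129 and 139 CPM with gRNA 2 and 143, 157 and 155 CPM with gRNA 10. The changes were -0.48 ± 0.076 (edgeR adjusted p = 0.00112) and -0.32 ± 0.076 (0.00758). SETD2 measured 122, 118 and 114 CPM in controls, 73.4, 87.98 and 94.5 CPM with gRNA 2 and 104, 90.5 and 99.3 CPM with gRNA 10. All its knockout libraries lay below the controls, and it fell with gRNA 2 (-0.47 ± 0.10, edgeR adjusted p = 0.00572). With gRNA 10 its change of -0.27 ± 0.10 was not called (edgeR adjusted p = 0.0578), but was without gRNA 2 replicate 1 (0.0234) or gRNA 2 replicate 3 (0.00772), which enter through the shared estimate of the spread. PBRM1 measured 67.7, 66.98 and 65.9 CPM in controls, 38.6, 44.8 and 50.3 CPM with gRNA 2 and 61.2, 55.1 and 51.5 CPM with gRNA 10. It too fell with gRNA 2 (-0.59 ± 0.11, edgeR adjusted p = 0.00233), and its gRNA 10 change of -0.26 ± 0.11 (0.0763) was called without gRNA 2 replicate 1 (0.0435) or replicate 3 (0.0111). Fitted on the gRNA 10 and control libraries only, both genes were called with gRNA 10 (edgeR adjusted p = 0.000285 for SETD2 and 0.00101 for PBRM1).

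VHL measured 83.5, 82.7 and 84.3 CPM in the DU145 controls, 68.7, 77.4 and 52.8 CPM with gRNA 2 and 78.5, 73.2 and 74.8 CPM with gRNA 10. All 6 knockout values were below the controls, but neither change was called: -0.33 ± 0.12 (edgeR adjusted p = 0.0554) and -0.14 ± 0.12 (0.366). The gRNA 2 change was called without gRNA 2 replicate 2 (-0.46, edgeR adjusted p = 0.00817) or replicate 3 (-0.19, 0.0446), and by DESeq2 (adjusted p = 0.0366); the gRNA 10 change was called when only the groups compared were fitted (-0.14, edgeR adjusted p = 0.0158). RASSF1 measured 33.9, 32.1 and 33.3 CPM in controls, 24.8, 18.1 and 31.9 CPM with gRNA 2 and 20.2, 22.6 and 21.6 CPM with gRNA 10. Unlike in 22Rv1, all its knockout values were below the controls. It fell with gRNA 10 (-0.62 ± 0.17, edgeR adjusted p = 0.0130, or 0.0537 without gRNA 10 replicate 1), and its change with gRNA 2 was -0.41 ± 0.17 (0.0794, or -0.62 and 0.000605 without gRNA 2 replicate 3).

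FHIT, TGFBR2 and CDCP1 were called lower in DU145 with gRNA 10 and not with gRNA 2, and at each the guides differed. FHIT measured 4.61, 4.31 and 4.93 CPM in controls, 4.81, 4.97 and 4.48 CPM with gRNA 2 and 2.72, 2.34 and 2.75 CPM with gRNA 10. With gRNA 10 it fell (-0.82 ± 0.15, edgeR adjusted p = 0.00165), and it differed between guides by -0.87 ± 0.15 (0.00145). TGFBR2, well expressed here, measured 106, 104 and 105 CPM in controls, 101, 110.1 and 57.99 CPM with gRNA 2 and 44.8, 43.7 and 43.01 CPM with gRNA 10. It fell with gRNA 10 (-1.26 ± 0.19, edgeR adjusted p = 4.80e-04; between guides -1.03 ± 0.19, 0.00186), and its gRNA 2 libraries lay on both sides of the controls, with replicate 3 far below them. CDCP1 measured 341, 323 and 344 CPM in controls, 335, 339.7 and 316 CPM with gRNA 2 and 225, 231 and 232 CPM with gRNA 10. It fell with gRNA 10 (-0.55 ± 0.071, edgeR adjusted p = 1.86e-04; between guides -0.53 ± 0.071, 3.15e-04).

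The semaphorins were not called in DU145. SEMA3F measured 22.6, 20.1 and 21.5 CPM in controls, 25.1, 22.2 and 8.74 CPM with gRNA 2 and 22.9, 26.8 and 25.6 CPM with gRNA 10. SEMA3B measured 9.36, 9.01 and 8.24 CPM in controls, 6.99, 5.94 and 1.99 CPM with gRNA 2 and 5.33, 7.28 and 6.90 CPM with gRNA 10. In both, gRNA 2 replicate 3 was the lowest of its group, as it was for VHL, TGFBR2 and PTPRG. Without it SEMA3F was called higher with gRNA 10 (0.23, edgeR adjusted p = 0.0351) and SEMA3B lower with gRNA 2 (-0.45, 0.0180) and with gRNA 10 (-0.45, 0.00716). SEMA3B was also called with gRNA 2 without replicate 1 (-1.14, edgeR adjusted p = 0.0356) and by DESeq2 (adjusted p = 0.0440). Fitted on the gRNA 10 and control libraries only, SEMA3F was called higher (edgeR adjusted p = 0.0114) and SEMA3B lower (0.00250) with gRNA 10. PRKCD, so divided in 22Rv1, measured 63.5, 60.2 and 59.8 CPM in controls, 65.8, 58.4 and 70.3 CPM with gRNA 2 and 49.9, 56.2 and 51.02 CPM with gRNA 10. It was not called against the controls, but was without gRNA 2 replicate 2 (-0.23, edgeR adjusted p = 0.0297) or replicate 3 (-0.23, 0.0149), or with only the groups compared (0.00217).

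GOLGA4, MITF and NISCH were lower in DU145 to differing degrees. GOLGA4 measured 169, 162 and 151 CPM in controls, 104, 144 and 113 CPM with gRNA 2 and 147, 115 and 143 CPM with gRNA 10. Its gRNA 2 call (-0.42 ± 0.13, edgeR adjusted p = 0.0328) was lost without gRNA 2 replicate 1 (0.0990) or without control replicate 1 (0.106), 2 (0.0872) or 3 (0.0587) and when only the groups compared were fitted (0.0607). MITF (chr3:69739435-69968337) measured 80.7, 82.8 and 80.9 CPM in controls, 62.2, 75.4 and 51.8 CPM with gRNA 2 and 68.03, 60.3 and 61.97 CPM with gRNA 10 (-0.37 ± 0.12 and -0.36 ± 0.12, edgeR adjusted p = 0.0393 and 0.0365). The gRNA 2 call of MITF was lost without gRNA 2 replicate 1 and without any single control or gRNA 10 library (edgeR adjusted p of 0.0537 to 0.106), and the gRNA 10 call was lost without any single control or gRNA 10 library (0.0541 to 0.118); without gRNA 2 replicate 3 the gRNA 2 change was -0.24. NISCH measured 139, 136 and 136 CPM in controls, 97.9, 94.8 and 94.7 CPM with gRNA 2 and 97.97, 119 and 111 CPM with gRNA 10, and fell with both (-0.52 ± 0.082 and -0.33 ± 0.082, edgeR adjusted p = 0.00110 and 0.00914). NKTR (74.4, 64.5 and 62.5 CPM in controls) and USP4 (30.1, 30.4 and 31.1 CPM) were not called.

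The DU145 guides differed at 17 of the 42 genes (7 lower and 10 higher with gRNA 10), 40.5% beside 38.8% of all tested genes, again near the background. DAG1 was higher with gRNA 10 than with gRNA 2 by 0.81 ± 0.12 (edgeR adjusted p = 6.77e-04), having fallen with gRNA 2 (-0.67 ± 0.12, 0.00268) and not with gRNA 10 (0.15 ± 0.12, 0.367). The number of differing genes was 11 without gRNA 10 replicate 1, 8 without replicate 2, 11 without replicate 3, and 6 when only the 2 guides' libraries were fitted.

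In PC3 most of the 42 genes were higher in the knockouts. With gRNA 2 the median was 0.29, and 29 of 42 (69.0%) were called higher and 4 lower, against 32.1% and 31.5% of all tested genes. With gRNA 10 the median was 0.23, and 28 (66.7%) were called higher and 4 lower, against 37.9% and 35.6%. The other 380 3p genes had a median of 0.28 with each guide, with 209 (55.0%) and 228 (60%) called higher, and the 3q genes had medians of -0.20 and -0.24. The genes called higher with both guides numbered 21, among them FANCD2, TGFBR2, CTNNB1, SETD2, SMARCC1, RHOA, BAP1, PBRM1, RASSF1, SEMA3B and SEMA3F, where 17.9% of all tested genes were. PTPRG alone of the 42 was called lower with both, where 16.3% of all tested genes were. PXK, FHIT, RYBP and SHQ1 were called with neither. The 3p arm ranked 39 and 37 of 41 from the lowest. The 6 genes beyond 60 Mb had medians of -0.18 and 0.091, and the 18 genes between 50 and 60 Mb had 0.34 and 0.22. Libraries of a group were closer to each other in PC3, with a biological coefficient of variation of 3.55% against 12.3% in DU145 and 14.2% in 22Rv1, and smaller changes were called there.

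**Figure D5:**
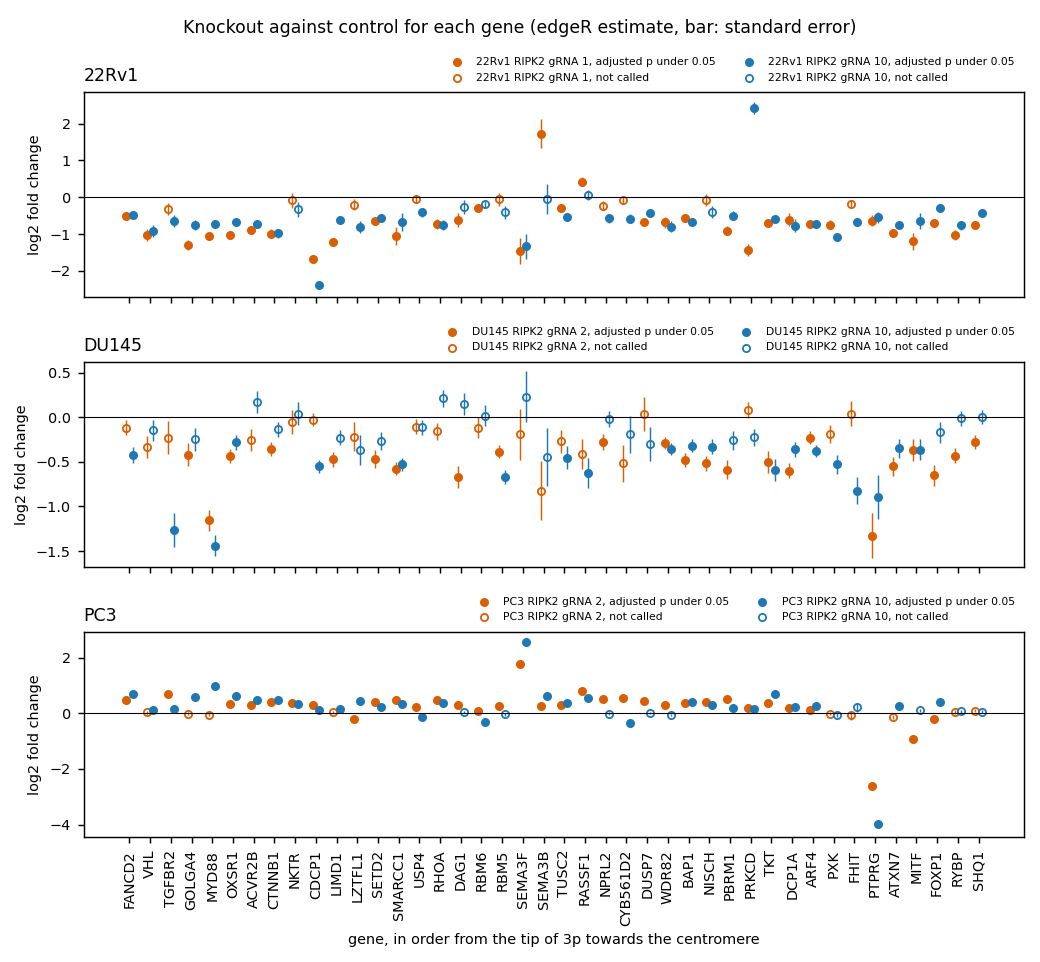
Log2 fold change (vertical axes) with its standard error for each of the 42 genes in chromosome order (horizontal axis) and each guide against control; filled points have an edgeR adjusted p under 0.05. Most points are below 0 in 22Rv1 and DU145 and above 0 in PC3, with PRKCD (2.43 with gRNA 10) and SEMA3B (1.72 with gRNA 1) apart in 22Rv1 and PTPRG (-2.61 and -3.99) apart in PC3.

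By the mean of both guides, the largest rises in PC3 were in SEMA3F and RASSF1. SEMA3F measured 55.5, 52.01 and 52.9 CPM in controls, 177, 181 and 185 CPM with gRNA 2 and 313, 308 and 320.5 CPM with gRNA 10. It rose by 1.76 ± 0.041 (edgeR adjusted p = 1.09e-25) and 2.55 ± 0.040 (4.02e-30), the opposite of its direction in 22Rv1. RASSF1 measured 21.3, 21.4 and 20.9 CPM in controls, 37.3, 38.4 and 36.6 CPM with gRNA 2 and 30.9, 31.04 and 30.8 CPM with gRNA 10. It rose by 0.82 ± 0.055 (edgeR adjusted p = 5.07e-14) and 0.54 ± 0.057 (5.38e-10), and in neither gene did the knockout and control libraries overlap.

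PTPRG and MITF fell most in PC3 by the mean of both guides. PTPRG measured 19.02, 21.03 and 22.2 CPM in controls, 3.40, 2.96 and 3.80 CPM with gRNA 2 and 1.30, 1.35 and 1.25 CPM with gRNA 10, changes of -2.61 ± 0.10 (edgeR adjusted p = 9.30e-20) and -3.99 ± 0.12 (9.49e-23). PTPRG was called lower with both guides in each of the 3 lines, though the 22Rv1 values chose the genes. Over all tested genes 12.3% were called lower with both guides in 22Rv1, 8.02% in DU145 and 16.3% in PC3. In 22Rv1 PTPRG measured 33.3, 33.9 and 28.1 CPM in controls, 24.2, 21.1 and 15.98 CPM with gRNA 1 and 20.2, 24.3 and 20.8 CPM with gRNA 10. MITF measured 26.9, 27.1 and 29 CPM in the PC3 controls, fell to 14.8, 15.5 and 13.8 CPM with gRNA 2 (-0.91 ± 0.066, edgeR adjusted p = 2.37e-13), and was at 29.4, 30.7 and 29.5 CPM with gRNA 10 (0.11 ± 0.058, 0.0890).

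BAP1, SETD2, PBRM1 and TGFBR2 rose in PC3 with both guides. BAP1 went from 157, 154 and 152 CPM to 195, 201 and 206 CPM with gRNA 2 and 203, 201 and 206 CPM with gRNA 10 (0.38 ± 0.036 and 0.40 ± 0.036, edgeR adjusted p = 1.31e-10 and 2.94e-11). SETD2 went from 84.4, 89.6 and 87.8 CPM to 112, 119 and 115 CPM and 104, 109.6 and 96.2 CPM (0.40 ± 0.045 and 0.24 ± 0.046, edgeR adjusted p = 5.57e-09 and 2.00e-05). In these chromatin regulators every knockout library lay above the controls. PBRM1 went from 60.1, 64.3 and 60.9 CPM to 90.3, 94.5 and 81.6 CPM and 68.8, 76.5 and 68.4 CPM (0.52 ± 0.053 and 0.20 ± 0.054, edgeR adjusted p = 2.08e-09 and 0.00141). TGFBR2 went from 88.1, 93.4 and 94.1 CPM to 156, 143 and 144 CPM and 104, 102 and 104 CPM (0.69 ± 0.042 and 0.17 ± 0.043, edgeR adjusted p = 5.91e-15 and 0.00100). PBRM1 and TGFBR2 were higher with gRNA 2 than with gRNA 10 (edgeR adjusted p = 4.88e-06 and 1.55e-12).

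VHL differed little from its controls in PC3. It measured 101, 104 and 106 CPM in controls, 109, 108 and 100.4 CPM with gRNA 2 and 111, 115 and 112 CPM with gRNA 10. The gRNA 10 change was called (0.12 ± 0.041, edgeR adjusted p = 0.00953), but not without control replicate 1 (0.10, 0.0517). FHIT, at 3.14, 2.34 and 3.08 CPM in controls, was called with neither guide. CDCP1, with the largest fall in 22Rv1, went from 361, 390.2 and 374 CPM to 461, 483 and 457 CPM with gRNA 2 (0.32 ± 0.036, edgeR adjusted p = 4.41e-09) and to 398, 408 and 406 CPM with gRNA 10 (0.11 ± 0.036, 0.00879). Without control replicate 1 the gRNA 10 change of CDCP1 was 0.078 (edgeR adjusted p = 0.0781).

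MYD88 and GOLGA4 rose in PC3 with gRNA 10 and not with gRNA 2, and the guides differed at both. MYD88 measured 48.01, 46.99 and 45.8 CPM in controls, 43.4, 46.9 and 46.4 CPM with gRNA 2 and 93.7, 90.8 and 95.97 CPM with gRNA 10 (0.99 ± 0.046, edgeR adjusted p = 2.00e-18; between guides 6.63e-19). GOLGA4 measured 156, 162 and 155 CPM in controls, 163, 158 and 149.7 CPM with gRNA 2 and 226, 252 and 226 CPM with gRNA 10 (0.57 ± 0.043, edgeR adjusted p = 5.27e-13; between guides 4.00e-13). USP4 went both ways, from 62.04, 62.5 and 61.9 CPM to 71.7, 70.97 and 75.2 CPM with gRNA 2 (0.23 ± 0.043, edgeR adjusted p = 3.89e-05) and 56.1, 57.2 and 55.7 CPM with gRNA 10 (-0.14 ± 0.044, 0.00535). RBM6 (0.092 and -0.32) and CYB561D2 (0.56 and -0.33) likewise rose with gRNA 2 and fell with gRNA 10.

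PRKCD, SEMA3B, NKTR and NISCH rose in PC3 with both guides. PRKCD went from 59.7 to 61.1 CPM to 66.4 to 69.5 and 65.2 to 69.6 CPM (0.18 and 0.16), a small change beside those in 22Rv1. SEMA3B went from 21.4 to 22.6 CPM to 25.3 to 28.5 and 33.7 to 34.8 CPM (0.27 and 0.64). NKTR went from 80 to 85.3 CPM to 105 to 111 and 90.9 to 115 CPM (0.38 and 0.32), and NISCH from 127 to 135 CPM to 169 to 186 and 154 to 173 CPM (0.42 and 0.31). The PC3 guides differed at 30 of the 42 genes (17 lower and 13 higher with gRNA 10), 71.4% beside 73.4% of all tested genes.

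By role, groupings made after the values were seen, the 6 chromatin and transcription genes outside the suppressors were called lower with each guide in 22Rv1 (medians -1.0 and -0.72), where 22.9% and 20.6% of all tested genes were. In DU145 they were called lower in 6 of 6 with gRNA 2 (median -0.49) and 4 of 6 with gRNA 10 (-0.35), against 17.0% and 19.8% of all tested genes. In PC3, 2 of them were called lower and 2 higher with gRNA 2, against 31.5% and 32.1% of all tested genes, and 3 higher with gRNA 10, against 37.9%. The chromatin regulators counted with the suppressors, SETD2, BAP1 and PBRM1, rose in PC3 with both guides. TKT and ARF4 fell with both guides in DU145 (-0.50 and -0.59 for TKT, -0.23 and -0.38 for ARF4) and rose with both in PC3 (0.38 and 0.69 and 0.12 and 0.26). The 5 genes of RNA handling, RBM5, RBM6, DCP1A, SHQ1 and NKTR, had medians of -0.27 and 0.0014 in DU145, where RBM5 (-0.38 and -0.67) and DCP1A (-0.60 and -0.36) fell with both guides. Of the 4 genes of DNA repair, WNT, activin and scaffolding, 3 rose with gRNA 2 and 4 with gRNA 10 in PC3, with medians of 0.36 and 0.49, where 32.1% and 37.9% of all tested genes were called higher.

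Partners of these genes encoded elsewhere moved in both directions in 22Rv1. Of 25 tested BAF and PBAF subunits outside 3p, 3 were lower and 6 higher with both guides; among the lower was ACTL6A (-0.87 and -0.73), itself on chromosome 3, and among the higher SMARCD2 (0.60 and 0.80). Of 11 partners of VHL and regulators of HIF, 2 (18.2%) were called lower with gRNA 1 and 1 (9.09%) higher with gRNA 10, with medians of -0.13 and -0.0023; the shares over all tested genes were 22.9% and 20%. Of 20 tested HIF target genes, BNIP3L was lower with both guides (-0.52 and -0.51) and VEGFA, the vascular growth factor, higher (1.17 and 0.93). For comparison, 12.3% of all tested genes were called lower and 12.4% higher with both guides in 22Rv1.

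The HIF target genes had medians of -0.25 and 0.14 in 22Rv1, 0.39 and 0.34 in DU145, and -0.40 and -0.16 in PC3. In DU145, 5 of 21 were called higher with both guides, among them DDIT4 (1.62 and 0.53) and KDM3A (0.75 and 0.95), where 8.05% of all tested genes were. In PC3, 8 of 20 were called lower with both guides, among them NDRG1 (-0.94 and -1.75) and BNIP3 (-0.88 and -1.15), where 16.3% of all tested genes were, and 3 were called higher, among them P4HA2 (0.92 and 1.20), where 17.9% of all tested genes were. EPAS1, which encodes HIF-2 alpha, rose in PC3 (5.32 and 1.85), and EGLN3, a prolyl hydroxylase of HIF, rose in DU145 (1.25 and 1.00).

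Of 22 Fanconi anaemia genes outside 3p, 4 were called lower and 3 higher with gRNA 1 in 22Rv1, and 3 lower with gRNA 10. These shares of 18.2%, 13.6% and 13.6% were below the 22.9%, 25.6% and 20.6% of all tested genes. In PC3, where FANCD2 rose, 7 of the 22 were called higher with both guides, where 17.9% of all tested genes were, among them UBE2T (1.13 and 1.36) and USP1 (0.71 and 1.01), and FANCF was lower (-0.92 and -1.56). Of 16 genes of the BAP1 complex and of histone H3 lysine 36 methylation, only MBD6 was called in 1 direction with both guides in 22Rv1 (0.92 and 0.98), where 12.4% of all tested genes were called higher.

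Of 16 tested genes of the beta-catenin destruction complex and WNT targets, 5 were called lower with both guides in 22Rv1, among them CSNK1A1 (-1.08 and -0.80) and GSK3B (-0.99 and -0.67), the latter on chromosome 3, and 2 higher, LGR5 (2.89 and 1.87) and LEF1 (2.35 and 2.37), beside 12.3% and 12.4% of all tested genes. In PC3, 6 of 14 were called higher with both guides, among them LEF1 (7.43 and 5.33) and TCF7 (2.68 and 3.50), where 17.9% of all tested genes were. Of 23 TGF-beta and activin genes outside 3p, 3 were called lower with both guides in 22Rv1, among them PMEPA1, a target of TGF-beta (-3.31 and -2.81), and the receptor TGFBR1 (-0.88 and -0.91), and 2 higher, ID1 (2.57 and 0.87) and SMAD6 (1.36 and 0.74), counts near or under the same 12.3% and 12.4%. PMEPA1 rose in DU145 (1.59 and 2.25) and PC3 (1.66 and 1.88).

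Of 15 GATOR and mTORC1 genes, 1, RRAGD, was called lower with both guides in 22Rv1 (-0.64 and -0.65), where 12.3% of all tested genes were. In PC3 3 were lower and 2 higher, near the 16.3% and 17.9% of all tested genes. Of 13 tested signalling partners of MYD88, IRAK2 (-1.69 and -0.65, on chromosome 3) and TAB2 (-1.05 and -0.60) were called lower with both guides in 22Rv1 and IRAK4 higher (0.80 and 0.33), again beside 12.3% and 12.4% of all tested genes. In DU145, where MYD88 fell, 3 of 17 partners were called lower with both guides and 1 higher, the receptor TLR2 (4.82 and 3.78), where 8.02% and 8.05% of all tested genes were.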

How the data were processed

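The labels' protocols describe strand-specific mRNA libraries, 27 in all, read as pairs of 150 bases with DNBSEQ chemistry. For each line, raw counts per gene symbol and library are in a table that the authors deposited. The submitters' processing notes name FastQC, STAR, edgeR and hg38, without versions or roles, and the counting program, annotation, strand setting and filters are not given in the sources used here. Without a stated strand setting, reads of overlapping genes may be shared: 24 of the 42 genes overlap another annotated gene.

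Each line's table was fitted as a whole in edgeR 4.0.16 (R 4.3.3): TMM scaling, filterByExpr (minimum count 10, total 15), a robust quasi-likelihood F test on 3 groups of 3 libraries, and Benjamini-Hochberg adjustment over all genes tested, with a gene called at an adjusted p under 0.05. DESeq2 1.42.0 and the other alternatives are given in the closing section. The fits were tested on simulated counts with 200 genes changed 1.5-fold in the first guide. They recovered 20.5% of these in 22Rv1, 37.0% in DU145 and 78.5% in PC3, with 3, 6 and 10 false calls. The simulation changed far fewer genes than were called in the data (48.5% of all tested genes with gRNA 1 in 22Rv1, for example). Its adjusted p threshold was therefore stricter, so the share of such changes missed in the data cannot be read from it. Replicate numbers are those of the sample titles. Genes were placed with GENCODE 29 (26179 symbols) or RefSeq (1329), 38 stayed unplaced, and arms were split at the widest stretch without a gene. Totals of 17958558 to 20650819 counts put each of the 42 genes at 26 counts or more in each library.

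The 42 genes, the role groups and the pathway lists were chosen with earlier results of these data known. Genes with values in every library were named by rule: the tumour suppressors, the 3 largest and 3 smallest mean changes in 22Rv1, the genes not lower with both guides there, and the largest mean changes in DU145 (2 falls) and PC3 (2 falls and 2 rises). The others are given by role. Among partner genes outside the set, those named were among the 2 largest changes per direction and list, of those called in the same direction with both guides. Not all of these are named.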

Additional observations from a re-analysis of the deposited data

Results flagged for a closer look

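Some results went in opposite directions in 2 lines, with every knockout library of one line above its control mean and every knockout library of the other below its own. The differences between lines were not tested. The 22Rv1 values chose the genes, so the 22Rv1 side of any such contrast is a description. The share of all tested genes that went in opposite directions in this way is not given here. Nothing is therefore read from the counts of genes below. The median log2 ratio of the 42 genes to the controls was 0.914 higher in PC3 than in 22Rv1 and 0.588 higher in PC3 than in DU145, as differences of the means of both guides. Between PC3 and 22Rv1, 6 of the named genes showed this pattern: the log2 differences were 3.56 for SEMA3F, 2.24 for CDCP1, 1.07 for PBRM1, 1.00 for BAP1, 0.926 for SETD2 and 0.910 for TGFBR2. Between PC3 and DU145 another 6 showed it, with 1.20 for RASSF1, 1.09 for SEMA3B, 0.788 for BAP1, 0.788 for NISCH, 0.785 for PBRM1 and 0.688 for SETD2. SETD2, BAP1 and PBRM1 are in both groups of genes. 22Rv1 carried gRNA 1 where the other lines carried gRNA 2, so line and guide cannot be told apart for that guide.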

How the results depend on the processing

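The set's counts of called genes and medians were recomputed with other scaling factors (DESeq2's, by its RLE method), without mitochondrial genes, with DESeq2, without a filter, with at least 10 counts in every library, on the compared groups only, without each library in turn, and with the replicate block. By the rule applied, 322 of these values stayed close and 14 moved, but counts of called genes that stayed close still varied. In DU145, leaving out single libraries gave 18 to 28 genes called lower with gRNA 2 and 15 to 28 with gRNA 10. The other settings gave 16 to 25 and 20 to 30. In 22Rv1, single libraries left out gave 27 to 35 called lower with gRNA 1 and 29 to 39 with gRNA 10. On the compared groups only, 3 genes were called higher with gRNA 10 in DU145 (0 otherwise) and 6 differed between the DU145 guides (17 otherwise). Leaving out single libraries gave 1 to 2 genes called higher with gRNA 1 in 22Rv1, a median of -0.634 to -0.605 with gRNA 10, and 8 to 21 genes differing between the guides. In DU145 it gave 0 to 2 genes called higher with gRNA 10 and 8 to 25 differing between guides, and in PC3 a median of 0.256 to 0.304 with gRNA 2.

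Leaving out single libraries turned signs, in changes not called with all libraries, in 22Rv1 for NKTR (-0.377 to 0.0881), USP4 (-0.207 to 0.0208) and NISCH (-0.326 to 0.0594) with gRNA 1 and for SEMA3B (-0.101 to 0.0416) and RASSF1 (-0.0503 to 0.154) with gRNA 10. It did so too for TGFBR2 (-0.401 to 0.00784), NKTR (-0.150 to 0.0876, with 0.0267 between), CDCP1 (-0.0532 to 0.0106), SEMA3F (-0.462 to 0.148) and FHIT (-0.00436 to 0.0921) with gRNA 2 in DU145, for NKTR with gRNA 10 (-0.00685 to 0.120, with -0.00343 between), and for GOLGA4 (-0.0357 to 0.0280, with 0.0111 between) and FHIT (-0.201 to 0.000215) with gRNA 2 in PC3. The cause was not tested. Fitted with the replicate block, 30 and 35 genes were called lower in 22Rv1, 19 and 20 in DU145, and 29 and 28 higher in PC3, and of the named genes' calls that of GOLGA4 with gRNA 2 in DU145 was lost (adjusted p = 0.0560). Deviations of same-numbered libraries did not correlate throughout (r from -0.19 to 0.34), so the numbers were not taken as pairs. With 3 libraries a group, the spread limits what can be called in 22Rv1 and DU145.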
